A study of Homo sapiens with 8 samples.

Results

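The genes described here are those of the human mitochondrial genome, taken as every gene whose symbol starts with MT- in the expression tables. There were 37 such genes among 58302: 13 that encode proteins, 2 that encode ribosomal RNA (rRNA) and 22 that encode transfer RNA (tRNA). Their RNA was measured by sequencing poly(A)-selected RNA from SK-Hep1, an established human line from a liver tumour. One line of SK-Hep1 cells was a mock control and the other expressed SLC29A2, an equilibrative nucleoside transporter. Each was given a control treatment, sorafenib (an inhibitor of RAF and receptor tyrosine kinases), dipyridamole (an inhibitor of nucleoside transport and of phosphodiesterases) or both drugs, so that 8 conditions had 1 library each. The sources used here do not give doses, treatment times or the way SLC29A2 was introduced. Values below are in FPKM, fragments per kilobase of gene scaled to library size, and are listed in the order control treatment, sorafenib, dipyridamole, both drugs.

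SLC29A2 itself lay between 7.11 and 7.81 FPKM in the 4 mock libraries and between 1476.5 and 3039.7 FPKM in the 4 SLC29A2 libraries, as the labels say. Library totals, inferred from the smallest steps of the FPKM values, were 14.1 to 16.7 M reads. Of the liver markers checked, APOB, FGB and TTR were listed at 0 in all 8 libraries and the 9 hepatocyte markers summed to between 2.01 and 5.91 FPKM. Leukocyte markers summed to between 0.228 and 2.15 FPKM with CD3E at 0. Marker sums also moved with the drugs. The 9 hepatocyte markers summed to 4.14 to 5.91 FPKM with sorafenib and 2.01 to 2.69 without, and SERPINA1, the 1 tested, rose with it. With dipyridamole the 7 endothelial markers summed to 113 to 185 FPKM, against 333 to 416 without, with CAV1 fallen and ESM1 risen, and ESM1 fell with sorafenib (2 tested). The 5 epithelial markers summed to 733 to 1075 FPKM with dipyridamole and 2019 to 2781 without, with KRT8 and KRT18 of 3 tested fallen, and KRT18 fell with sorafenib too. The 6 mesenchymal markers summed to 2084 to 2516 FPKM with dipyridamole and 2618 to 3416 without, with VIM and SPARC of 6 tested fallen (calls by limma, as defined below). The part of these shifts in the mitochondrial results was not tested. Both mock libraries with dipyridamole stood apart in their make-up: the reads of non-coding nuclear genes were 2.51% of the total with dipyridamole and 2.71% with the 2 drugs, against 1.62% to 1.95% elsewhere. Calls that were lost when both of them were left out are named below.

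The mitochondrial genome is a small circle that is transcribed from both strands as long precursor RNAs by the polymerase POLRMT with TFAM and TFB2M. The tRNA genes sit between the other genes, and cutting them out by RNase P (TRMT10C, HSD17B10 and PRORP) and by ELAC2 releases the rRNAs and the messenger RNAs. MTPAP then adds poly(A) tails to most of the messenger RNAs, LRPPRC and SLIRP stabilise messenger RNAs, and SUPV3L1 with PNPT1 degrades RNA. The encoded proteins are core subunits of respiratory complexes I, III and IV and of ATP synthase, and the rRNAs form the mitochondrial ribosome.

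A library made from poly(A) RNA selects RNA by its A tail, so the 3′ ends of the members that passed a test are shown. Also shown are the 2 longest gene overlaps and the tRNA that affect how reads can be assigned. Shorter overlaps between other genes are not shown. Sequences are from GENCODE release 29 on GRCh38, written 5′ to 3′ on the coding strand. In the protein-coding ends, capitals mark the bases past the last sense codon: a complete stop codon in MT-CO2, MT-ND5 and MT-ND6, and a lone T in MT-ND2, MT-ND3 and MT-CYB, where the poly(A) tail supplies the missing A bases of the stop codon. In the overlaps, capitals mark the bases shared by the 2 genes, the first overlap also showing the end of MT-ATP8, and in MT-TP they mark the anticodon of the proline tRNA.
MT-CO2, end: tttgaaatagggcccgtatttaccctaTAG
MT-ND2, end: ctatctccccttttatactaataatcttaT
MT-ND3, end: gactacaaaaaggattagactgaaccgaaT
MT-ND5, end: ctcatcctaaccctactcctaatcacaTAA
MT-CYB, end: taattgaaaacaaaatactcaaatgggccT
MT-ND6, end: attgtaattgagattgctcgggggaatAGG
MT-RNR1, end: aagtgtactggaaagtgcacttggacgaac
MT-RNR2, end: tatacccacacccacccaagaacagggttt
MT-ATP8 and MT-ATP6, overlap: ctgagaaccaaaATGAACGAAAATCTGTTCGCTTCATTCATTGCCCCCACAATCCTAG
MT-ND4L and MT-ND4, overlap: aaacctactccaATGCTAA
MT-TP, whole gene: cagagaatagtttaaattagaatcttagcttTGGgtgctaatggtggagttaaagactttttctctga

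On the annotation, the rRNA genes MT-RNR1 (chrM:648-1601) and MT-RNR2 (chrM:1671-3229) lie side by side with a tRNA gene between them. MT-ND6 (chrM:14149-14673) is the only protein-coding gene of the 13 on the minus strand, where 8 tRNA genes also lie. By their annotated ends, 6 of the 13 coding genes lack a complete stop codon: MT-ND1, MT-ND2, MT-CO3, MT-ND3, MT-ND4 and MT-CYB. MT-ATP6 is annotated with a complete one, but its last base is also the first base of MT-CO3 (chrM:9207-9990). Whether its messenger RNA keeps that base cannot be read from the annotation. MT-ATP8 (chrM:8366-8572) shares its last 46 bases with MT-ATP6 (chrM:8527-9207), which leaves 161 bases of its own. MT-ND4L and MT-ND4 share 7 bases. No strand information is stated for these libraries, so reads from the 2 strands at one position cannot be told apart. This holds for MT-ND6 too, and the strand its reads came from was not tested.

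Mitochondrial RNA was among the most abundant RNA in every library. All 37 genes together took 5.34%, 4.23%, 8.05% and 2.63% of total FPKM in mock cells and 6.73%, 4.84%, 5.43% and 3.06% in SLC29A2 cells. The share was lowest with both drugs in each cell line, and its highest value was in the mock library given dipyridamole alone. As a share of reads it was 3.75%, 3.07%, 5.81% and 1.90% in mock cells and 4.59%, 3.38%, 4.09% and 2.27% in SLC29A2 cells, which keeps both of those places. In the 4 pairs of libraries that differ in sorafenib alone, the log2 ratio of the FPKM share was -0.33 and -1.61 in mock cells and -0.48 and -0.83 in SLC29A2 cells, with a mean of -0.81 ± 0.57 (SD, n = 4 pairs). Every sorafenib library thus lay below its partner, although the mock pair under dipyridamole differed far more than the rest. For dipyridamole the 4 ratios were 0.59, -0.69, -0.31 and -0.66, with a mean of -0.27 ± 0.60 (SD, n = 4 pairs), which is smaller than their spread. For SLC29A2 against mock cells they were 0.33, 0.19, -0.57 and 0.22, with a mean of 0.04 ± 0.41 (SD, n = 4 pairs). No test is given for these shares, which sum over the members.

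**Figure D1:**
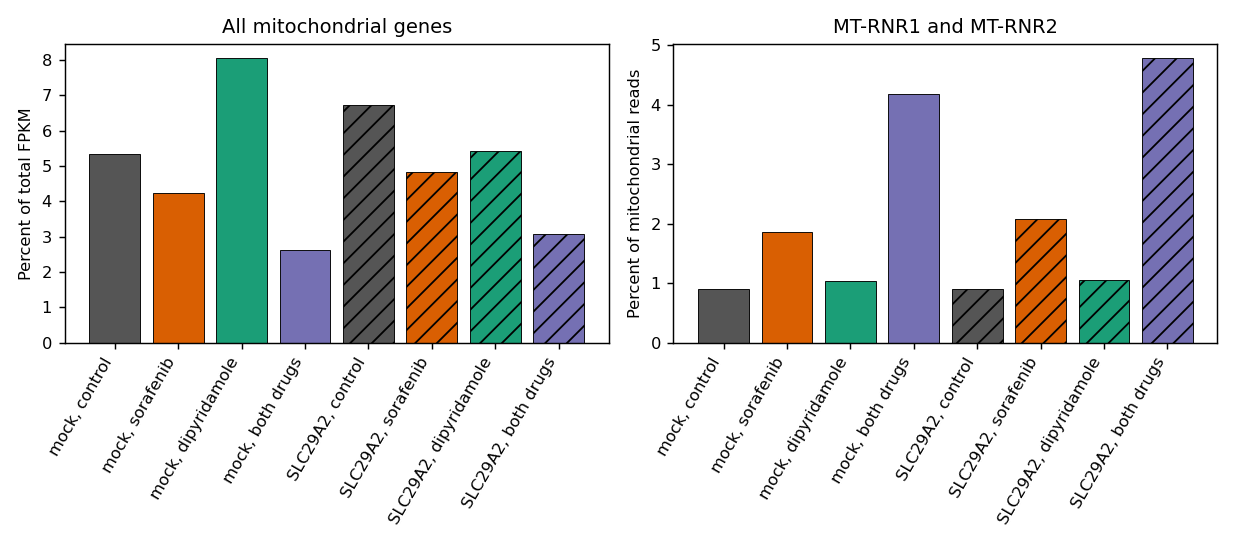
The left panel plots the percent of total FPKM taken by all 37 mitochondrial genes in each library, and the right panel the percent of mitochondrial reads that came from MT-RNR1 and MT-RNR2; each bar is 1 library, and hatched bars are SLC29A2 cells. The share on the left runs from 2.63% to 8.05% and is lowest with both drugs, while the rRNA part on the right is highest there, at 4.17% and 4.78%.

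The plot of shares sets these values beside the part of mitochondrial reads that came from rRNA. The rRNAs gave 0.904%, 1.86%, 1.03% and 4.17% of mitochondrial reads in mock cells and 0.905%, 2.07%, 1.05% and 4.78% in SLC29A2 cells. The same order held in both lines: lowest with the control treatment, slightly higher with dipyridamole, then sorafenib, and highest with both drugs.

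Levels differed widely between members. Of the 13 coding genes, 9 averaged at least 500 FPKM across libraries. MT-ND5, MT-ND6, MT-CYB and MT-ATP8 had means of 75.4, 102, 95.0 and 8.04 FPKM. The value of MT-ATP8, with 161 bases not shared with MT-ATP6, also depends on how reads were assigned between the 2 genes. It is therefore not a measure of RNA level alone. MT-CO1, the catalytic core of complex IV, had the highest FPKM of all genes in 7 libraries and stood behind only the translation factor EEF2 (8020.4 FPKM) in SLC29A2 cells given both drugs. It made up between 25.6% and 35.8% of the FPKM of the 13 coding genes, and MT-CO2 between 10.5% and 15.6%. MT-RNR2 averaged 367 FPKM and MT-RNR1 47.0 FPKM, and the ratio of the 2 within a library lay between 6.29 and 9.40. Of the 22 tRNA genes, 21 were listed at 0 in all 8 libraries, where 3 reads on a tRNA gene of 70 bases would be 2.57 to 3.05 FPKM. The one exception was MT-TP. On the annotation, 20 of the tRNA genes have another gene within 60 bases on each side. That spacing is shorter than the fragments selected for these libraries. MT-TF and MT-TP are not among the 20, and MT-TF was also listed at 0 in all 8 libraries. The part of this spacing in the tRNA values was not tested.

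**Figure D2:**
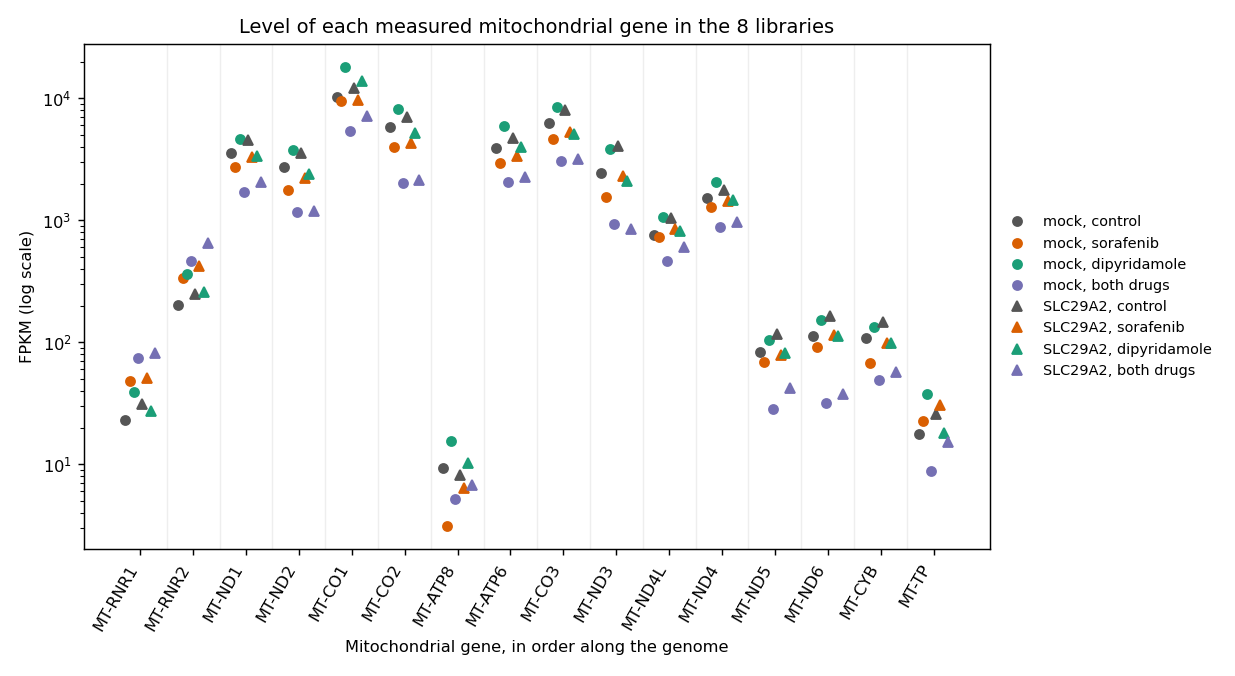
Each point is the FPKM of 1 gene in 1 library, on a log axis, for the 16 mitochondrial genes averaging 1 FPKM or more, in order along the genome; circles are mock cells, triangles SLC29A2 cells, and colours the 4 treatments. For the coding genes from MT-ND1 to MT-CYB other than MT-ATP8, the points for both drugs are the lowest, while for MT-RNR1 and MT-RNR2 they are the highest.

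The first comparison asked how these genes differed with sorafenib. It used the 13899 genes that averaged 1 FPKM or more, among them 16 of the 37 members: the 13 coding genes, both rRNAs and MT-TP. Main effects were estimated with limma on log2(FPKM + 1), a scale that understates changes of low genes, from an additive model of cell line, sorafenib and dipyridamole, and p-values were adjusted over all genes tested. Since each condition had 1 library, interactions between the factors are part of the error, and a p-value measures only how these 8 libraries scatter, which may be technical. In RNA from bulk cultures, fewer mitochondrial genomes, less RNA per genome and a changed mix of cells cannot be told apart.

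Sorafenib split the members by class: messenger RNAs were lower and rRNAs higher. With an adjusted p under 0.05, 7 of the 13 coding genes fell and 0 rose, where 2.17% of all genes tested fell. Both rRNAs rose, where 5.94% of all genes tested rose. All 13 coding genes were lower in 4 of 4 library pairs. The share of all genes lower in 4 of 4 pairs was not counted, and genes with shared precursor RNAs are not separate observations. Log2 differences of the 13 ran from -1.21 to -0.50 with a median of -0.87, while the median of all genes was 0.09. For 9 coding genes all 4 sorafenib libraries lay below all 4 others (MT-CO1, MT-CO2, MT-CYB, MT-ND1, MT-ND2, MT-ND4, MT-ND5, MT-ATP6 and MT-ATP8), as for 2.14% of all genes tested. For MT-RNR1 all 4 lay above, as for 5.83% of all genes tested.

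The complex I subunits included 4 of the 7 that fell. MT-ND6, the one encoded on the minus strand, stood at 113, 91.9, 151 and 31.6 FPKM in mock cells and at 166, 115, 114 and 37.4 FPKM in SLC29A2 cells. MT-ND3 stood at 2447, 1559, 3853 and 926 FPKM in mock cells and at 4103, 2324, 2117 and 848 FPKM in SLC29A2 cells. In each gene both libraries given the 2 drugs together were far below the rest, and the groups with and without sorafenib overlapped, since SLC29A2 cells on sorafenib lay above SLC29A2 cells on dipyridamole and, for MT-ND6, above mock control cells. MT-ND6 fell by 1.16 ± 0.29 (SE) on the log2 scale (limma adjusted p = 0.0434) and MT-ND3 fell by 1.21 ± 0.30 (adjusted p = 0.0412). MT-ND2, a subunit of the proton-pumping arm, stood at 2740.4, 1762, 3796 and 1177 FPKM in mock cells and at 3557, 2219.9, 2381 and 1194 FPKM in SLC29A2 cells. MT-ND5, also in that arm, stood at 83.5, 68.7, 104 and 28.4 FPKM in mock cells and at 117, 78.5, 81.3 and 42.1 FPKM in SLC29A2 cells. For both genes every sorafenib library lay below every library without it. MT-ND2 fell by 1.00 ± 0.23 (limma adjusted p = 0.0332) and MT-ND5 fell by 0.90 ± 0.22 (adjusted p = 0.0390).

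The other 3 complex I genes did not pass the test. MT-ND1 stood at 3563, 2721, 4621 and 1715 FPKM in mock cells and at 4519, 3296, 3335 and 2050.3 FPKM in SLC29A2 cells, and MT-ND4 at 1536, 1283, 2064 and 876 FPKM and at 1781, 1449, 1469.7 and 973 FPKM. Their sorafenib and other libraries did not overlap, yet the gap was narrow in SLC29A2 cells. MT-ND4L, whose end overlaps MT-ND4, stood at 764, 736, 1072 and 460.5 FPKM in mock cells and at 1037, 846, 818 and 606 FPKM in SLC29A2 cells. Its groups overlapped. The log2 differences were -0.74 ± 0.21 (limma adjusted p = 0.0657) for MT-ND1, -0.60 ± 0.19 (adjusted p = 0.0851) for MT-ND4 and -0.50 ± 0.19 (adjusted p = 0.134) for MT-ND4L.

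MT-CYB, cytochrome b and the sole mitochondrially encoded subunit of complex III, stood at 108, 67.3, 135 and 48.9 FPKM in mock cells and at 146, 98.8, 99.4 and 56.9 FPKM in SLC29A2 cells. The 4 sorafenib libraries were the lowest 4, although the highest of them came within 1 FPKM of SLC29A2 cells on dipyridamole. MT-CYB fell by 0.87 ± 0.17 on the log2 scale (limma adjusted p = 0.0229).

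In complex IV 1 of 3 subunits fell. MT-CO2, which receives electrons from cytochrome c, stood at 5869, 3984, 8099 and 2037 FPKM in mock cells and at 6976, 4262, 5199.7 and 2146 FPKM in SLC29A2 cells. Its sorafenib libraries all lay below the others, and MT-CO2 fell by 1.13 ± 0.26 (limma adjusted p = 0.0340). MT-CO1 stood at 10208, 9429, 18077 and 5428 FPKM in mock cells and at 12052, 9638, 13760.1 and 7108 FPKM in SLC29A2 cells. MT-CO3, the third core subunit, stood at 6259, 4637, 8556 and 3040.3 FPKM in mock cells and at 7990.0, 5338, 5092 and 3173 FPKM in SLC29A2 cells. MT-CO1 separated the groups and MT-CO3 did not, since SLC29A2 cells on sorafenib lay above those on dipyridamole. Neither passed, with log2 differences of -0.78 ± 0.29 for MT-CO1 (limma adjusted p = 0.127) and -0.80 ± 0.24 for MT-CO3 (adjusted p = 0.0744).

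Of the ATP synthase subunits, MT-ATP6, part of the proton channel, stood at 3947, 2959, 5942 and 2070.3 FPKM in mock cells and at 4716, 3339, 3955 and 2266 FPKM in SLC29A2 cells. Its groups did not overlap, and the log2 difference was -0.81 ± 0.22 (limma adjusted p = 0.0577). MT-ATP8, a short subunit whose gene partly overlaps MT-ATP6, stood at 9.26, 3.10, 15.5 and 5.16 FPKM in mock cells and at 8.17, 6.34, 10.1 and 6.74 FPKM in SLC29A2 cells. Those values rest on 10 to 45 reads per library, so the mock sorafenib value of 3.10 FPKM had an exact Poisson 95% interval of 1.48 to 5.69 FPKM, which covers counting error only. MT-ATP8 fell by 0.90 ± 0.21 (limma adjusted p = 0.0357), the call that rests on the fewest reads. It was kept in 1 of 8 refits that left out a library. A limma fit on reads recovered from the FPKM steps (voom) did not call MT-ATP8, at -0.99 (voom adjusted p = 0.0739).

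**Figure D3:**
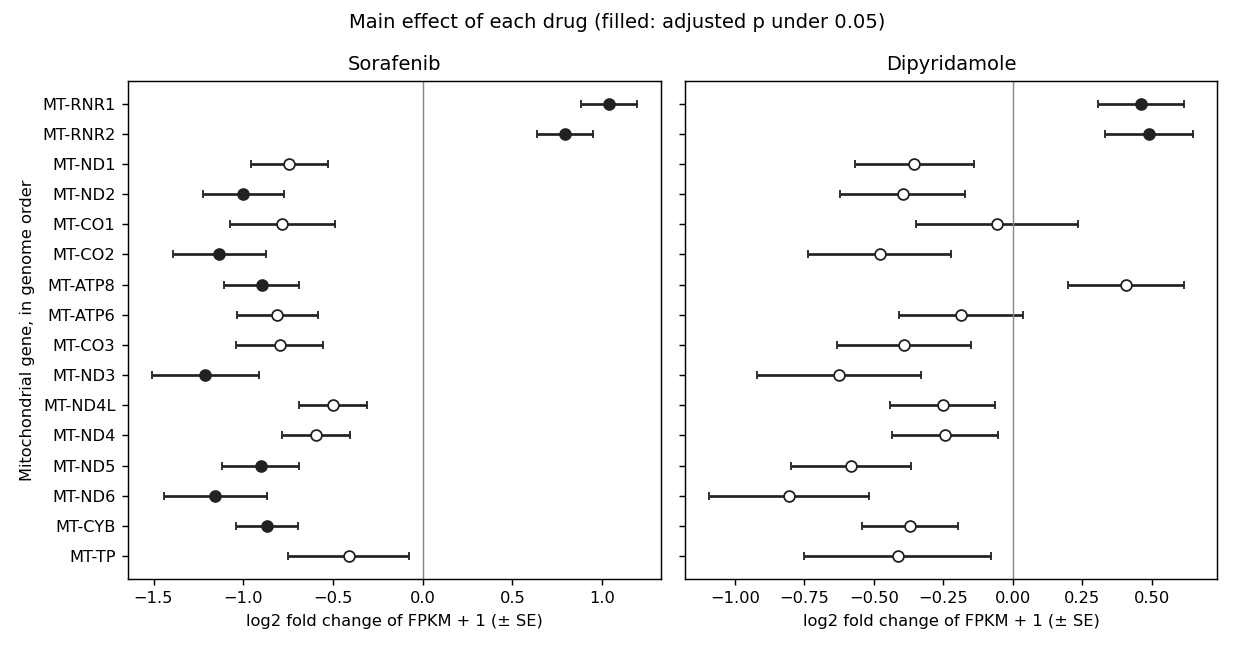
Points are log2 fold changes of FPKM + 1 for the main effect of sorafenib (left) and dipyridamole (right) with bars of 1 SE, for the 16 mitochondrial genes tested; filled points had an adjusted p under 0.05. Under sorafenib the 13 coding genes lie between -1.21 and -0.50 and the rRNAs at 1.04 and 0.79.

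The plot of main effects shows the coding genes on one side and the rRNAs on the other. MT-RNR1, the RNA of the small ribosomal subunit, stood at 23.2, 48.2, 39.5 and 73.7 FPKM in mock cells and at 31.1, 50.9, 27.4 and 82.2 FPKM in SLC29A2 cells, from 370 to 1293 reads. All 4 sorafenib libraries were above all others, and MT-RNR1 rose by 1.04 ± 0.15 on the log2 scale (limma adjusted p = 0.00806). MT-RNR2, the RNA of the large subunit, stood at 203, 337, 359.9 and 464 FPKM in mock cells and at 248, 418, 257 and 647 FPKM in SLC29A2 cells. It was higher in 4 of 4 pairs and overlapped at one place, where mock cells on dipyridamole exceeded mock cells on sorafenib. MT-RNR2 rose by 0.79 ± 0.16 (limma adjusted p = 0.0227). MT-TP stood at 17.6, 22.6, 37.6 and 8.84 FPKM in mock cells and at 25.8, 30.4, 18.2 and 15.2 FPKM in SLC29A2 cells, from 9 to 36 reads. It was lower in 2 of 4 pairs, with a log2 difference of -0.41 ± 0.34 (limma adjusted p = 0.475).

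The sorafenib calls differed in how far they depended on single libraries. When each library was left out in turn, MT-RNR1 passed in 8 of 8 refits, and MT-RNR2 in 5 of 8, losing its call without mock both drugs, SLC29A2 dipyridamole or SLC29A2 both drugs. All 7 coding calls were lost without mock sorafenib, mock both drugs, SLC29A2 control, SLC29A2 dipyridamole or SLC29A2 both drugs, and without mock dipyridamole MT-CYB alone of the 7 remained. The coding differences were negative in every such refit, and no member passed when genes of low level were kept in the fit and its adjustment. Without both mock libraries given dipyridamole, 2 of the 7 (MT-CYB at -0.68 and MT-ND2 at -0.77) and both rRNAs (MT-RNR1 at 1.09 and MT-RNR2 at 0.94) still passed. In that refit 0.676% of all genes tested fell and 1.49% rose.

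The coding genes were also grouped by the kind of stop codon at their annotated ends, and no test of this grouping was made. The 6 genes whose stop codon needs the tail had a median log2 difference of -0.83 with sorafenib, and 3 of them fell. The 7 genes annotated with a complete stop codon, MT-ATP6 among them, had a median of -0.90, and 4 of them fell. The rank correlation of the sorafenib difference with gene start was -0.11, with length 0.21 and with GC content 0.47. These were taken across 13 genes of the same libraries and are descriptions only.

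Because mitochondrial rRNA carries only short A tails, the reads of other RNA classes without long tails were set beside the rRNA values; these classes were chosen after the members' values had been seen. Reads of the 2 mitochondrial rRNAs were 339, 571, 599 and 793 per M reads in mock cells and 416, 700.5, 427 and 1087 per M reads in SLC29A2 cells. Small nuclear RNAs stood at 26.4, 25.1, 42.3 and 47.2 per M reads in mock cells and at 31.2, 29.7, 28.2 and 33.8 in SLC29A2 cells. Small nucleolar RNAs stood at 60.4, 50.8, 77.7 and 67.5 per M reads in mock cells and at 88.0, 72.7, 59.2 and 42.9 in SLC29A2 cells. With sorafenib alone both classes were lower than with the control treatment in each line, while the mitochondrial rRNAs were higher. For small nuclear RNAs the differences were small and rest on 440 against 391 reads in mock cells and 480 against 430 in SLC29A2 cells. For small nucleolar RNAs these counts were 1009 against 792 and 1353 against 1054. Whether such differences exceed counting error was not tested. With sorafenib on top of dipyridamole, small nuclear RNAs were higher in each line and small nucleolar RNAs lower. Miscellaneous small RNAs stood at 291, 294, 325 and 427 per M reads in mock cells and at 344, 232, 290.2 and 388 in SLC29A2 cells. Most of their reads came from RN7SL2, a signal recognition particle RNA gene, at 824, 824, 834 and 1139 FPKM in mock cells and at 969, 596, 822 and 1102 FPKM in SLC29A2 cells. Both of these were highest with the 2 drugs together in each line, as the mitochondrial rRNAs were, and both were higher with sorafenib on top of dipyridamole. RN7SL2 had a log2 difference of 0.04 ± 0.19 with sorafenib (limma adjusted p = 0.911), and the nuclear long non-coding RNA MALAT1 one of -0.37 ± 0.21 (adjusted p = 0.299). Of the other single genes looked up, RN7SK, RN7SL1, RPPH1 and SCARNA2 were listed at 0 in all 8 libraries. RMRP and TERC had at most 1 read in a library, and SNORD3A had 3 to 5. The classes and genes given here therefore cover only a part of the RNA without long tails. Their part in the rRNA result was not tested.

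With dipyridamole the rRNAs rose and no coding gene passed the test. MT-RNR2 rose by 0.49 ± 0.16 (limma adjusted p = 0.0436) and was higher in 4 of 4 pairs. MT-RNR1 rose by 0.46 ± 0.15 (limma adjusted p = 0.0499) and was higher in 3 of 4, the exception being SLC29A2 cells without sorafenib at 27.4 against 31.1 FPKM. These are 2 of 16 members, where 17.5% of all genes tested rose, so the share is near the background. Both calls sat close to the threshold: MT-RNR2 passed in 1 of 8 refits that left out a library, the one without SLC29A2 dipyridamole. MT-RNR1 passed in 2 of 8, those without SLC29A2 control or SLC29A2 dipyridamole. Both were lost when libraries were rescaled by size factors or by a total without mitochondrial genes. Both were also lost without both mock libraries given dipyridamole, at 0.34 for MT-RNR2 and 0.25 for MT-RNR1 (limma adjusted p = 0.204 and 0.416).

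Among the 13 coding genes 0 fell and 0 rose with dipyridamole by limma, where 12.6% of all genes tested fell. At an unadjusted p under 0.05 (limma) there were 2 of the 13, a smaller share than the 5840 of all 13899 genes tested. They were MT-ND6 at -0.81 ± 0.29 (limma adjusted p = 0.0624) and MT-ND5 at -0.58 ± 0.22 (adjusted p = 0.0703). The fit by voom, on reads recovered from the FPKM steps, called MT-ND5 lower. The 13 had a median log2 difference of -0.37 against 0.07 for all genes. The pairs disagreed in direction. In mock cells without sorafenib all 13 coding genes were higher with dipyridamole, by 0.31 to 0.82 on the log2 scale. In SLC29A2 cells without sorafenib 11 of 13 were lower, the exceptions being MT-CO1 at 0.19 and MT-ATP8 at 0.28. On top of sorafenib, 12 of 13 were lower in each line, and MT-ATP8 was the exception in both, at 0.59 and 0.08. The MT-ATP8 values rest on 10 to 45 reads per library.

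The dipyridamole result turned on the mock library given dipyridamole alone. Without it, 11 members fell and 0 rose: MT-ND1, MT-ND2, MT-ND3, MT-ND4, MT-ND4L, MT-ND5, MT-ND6, MT-CO2, MT-CO3, MT-CYB and MT-TP; in that refit 10.7% of all genes tested fell. Without both mock libraries given dipyridamole, 7 fell, among them MT-ND3 at -1.20 and MT-ND2 at -0.74, where 11.9% of all genes tested fell. Without the mock control library 3 fell, MT-ND3, MT-ND5 and MT-ND6, where 10.6% of all genes tested fell. The mock dipyridamole library was also one of the pair with the raised non-coding share, and the part of its composition in these values was not tested.

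**Figure D4:**
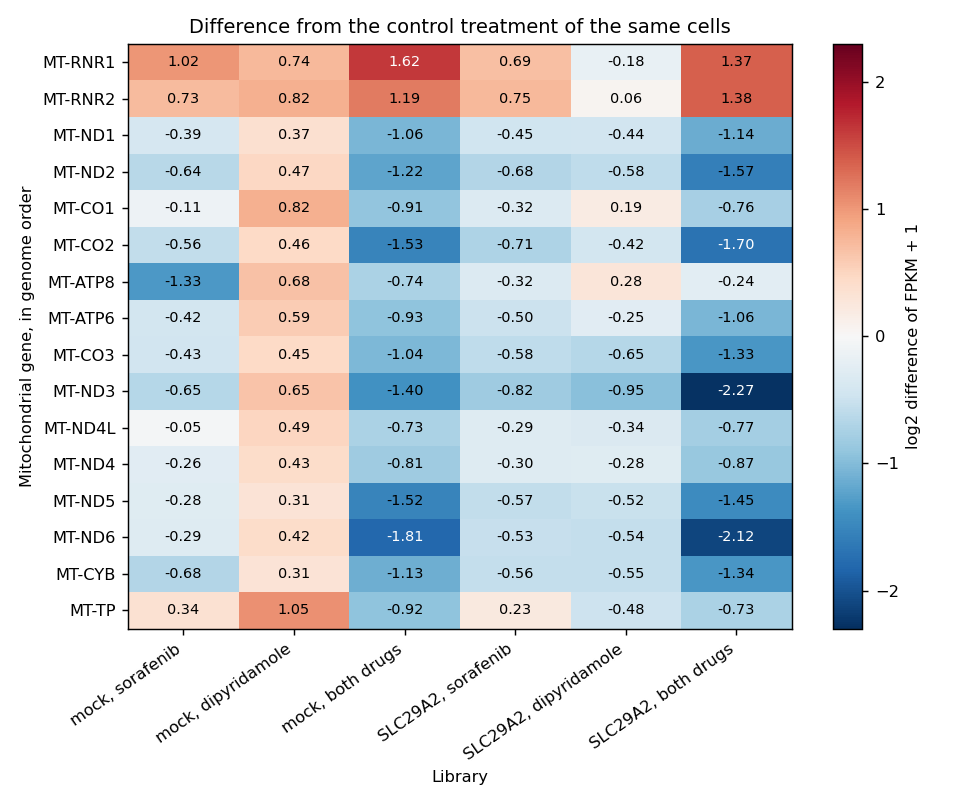
Each cell gives the log2 difference of FPKM + 1 between 1 treated library and the control-treated library of the same cells, for the 16 mitochondrial genes tested, with red for higher and blue for lower. The coding genes are at or below -0.73 with both drugs in mock cells, all above 0 with dipyridamole alone in mock cells, and as low as -2.27 with both drugs in SLC29A2 cells.

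Both drugs together gave the largest distances from the control treatment, with 1 library on each side and therefore no test. The map of differences from control shows this for 14 of the 16 genes in mock cells, all but MT-ATP8 and MT-TP. In SLC29A2 cells it shows this for 15, all but MT-ATP8. The share of all genes that lay farthest from control with both drugs was not counted. In mock cells 8 of the 16 members were at least 2-fold lower (MT-ND1, MT-ND2, MT-ND3, MT-ND5, MT-ND6, MT-CYB, MT-CO2 and MT-CO3), where 4.89% of all genes tested were. In SLC29A2 cells 9 were, the same 8 and MT-ATP6, where 7.81% of all genes tested were. The 2 rRNAs were at least 2-fold higher in each line, where 14.2% of all genes tested were in mock cells and 10% in SLC29A2 cells. The median of the 13 coding genes was -1.06 in mock cells, against 0.25 for all genes, and -1.33 in SLC29A2 cells, against 0.07. MT-ND6 had the lowest value in mock cells, at -1.81, and MT-ND3 in SLC29A2 cells, at -2.27. With sorafenib alone the coding medians were -0.42 and -0.53, and with dipyridamole alone 0.46 and -0.44; these comparisons share their control libraries.

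Whether the drugs act on these genes other than additively was asked with an interaction term. For sorafenib and dipyridamole 0 of 16 members passed (limma; 5 at an unadjusted p under 0.05, and 0 with voom), where 0.0863% of all genes tested passed. An unadjusted p under 0.05 for this term (limma) was found for 1839 of all 13899 genes tested. The 13 coding genes all had a negative estimate, with a median of -0.68. MT-ND6 had the smallest adjusted p, at -1.49 ± 0.31 (limma adjusted p = 0.186). The rRNA estimates were 0.36 ± 0.30 for MT-RNR1 and 0.11 ± 0.33 for MT-RNR2 (limma adjusted p = 0.653 and 0.926).

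SLC29A2 expression was not accompanied by a difference that passed the test. For SLC29A2 against mock cells 0 of 16 members passed (limma; 0 at an unadjusted p under 0.05, and 0 with voom), where 0.00719% of all genes tested passed, which is SLC29A2 itself. The coding estimates ran from -0.05 to 0.22 on the log2 scale with standard errors of 0.17 to 0.30, so differences of that order would not have been detectable here. For the interaction of cell line and sorafenib 0 of 16 passed (limma; 1 at an unadjusted p under 0.05, MT-ATP8, and 0 with voom), where 0% of all genes tested passed. For cell line and dipyridamole 0 of 16 passed by limma and 0 with voom, again where 0% of all genes tested passed. At an unadjusted p under 0.05 (limma) there was 1, MT-ND3. Of all 13899 genes tested, 546 had such an unadjusted p for cell line. The counts were 100 for its interaction with sorafenib and 2756 for that with dipyridamole.

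The nuclear genes that copy, transcribe and process the mitochondrial genome were counted next. Beside the counts stand the shares of all genes tested, of which 5.94% rose and 2.17% fell with sorafenib and 17.5% rose and 12.6% fell with dipyridamole. Of the 10 genes of mitochondrial transcription, 0 passed with sorafenib and 1 fell with dipyridamole, a count near that background. That gene was TFAM, which packages mitochondrial DNA and starts transcription, at -0.55 ± 0.14 (limma adjusted p = 0.0167; mean 29.99 FPKM). Its call was lost without mock dipyridamole, SLC29A2 control or SLC29A2 dipyridamole, without both mock dipyridamole libraries, and without a filter on low values. POLRMT, the polymerase, had log2 differences of -0.29 ± 0.13 with sorafenib and 0.06 ± 0.13 with dipyridamole (limma adjusted p = 0.182 and 0.769). TFB2M, which opens the promoter, had -0.50 ± 0.14 and -0.14 ± 0.14 (limma adjusted p = 0.0590 and 0.466). The list's median was -0.05 with sorafenib and -0.19 with dipyridamole, beside 0.09 and 0.07 for all genes.

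Of 22 genes of mitochondrial DNA replication and maintenance, 1 rose and 1 fell with sorafenib, and 5 rose and 4 fell with dipyridamole, again not far from the shares of all genes. TWNK, the replicative helicase, fell with sorafenib by 0.74 ± 0.12 (limma adjusted p = 0.0119) in 8 of 8 refits without a library. TWNK also fell with dipyridamole by 0.42 ± 0.12 (adjusted p = 0.0293), a call kept in 2 of 8 refits. RRM2B, a ribonucleotide reductase subunit, rose with sorafenib by 0.42 ± 0.11 (adjusted p = 0.0498), kept in 1 of 8. With dipyridamole the protease LONP1 rose by 1.08 ± 0.16 (adjusted p = 0.00138) and the inner membrane protein MPV17 by 0.87 ± 0.13 (adjusted p = 0.00189), each in 8 of 8 refits. TYMP, which breaks down thymidine, rose by 0.60 ± 0.16, and the topoisomerase TOP1MT by 0.44 ± 0.12 (adjusted p = 0.0194 and 0.0245; kept in 5 and 4 of 8 refits). The nuclease and helicase DNA2 fell by 1.34 ± 0.17 (adjusted p = 7.23e-04) and the succinyl-CoA ligase subunit SUCLA2 by 0.42 ± 0.10 (adjusted p = 0.0114), each in 8 of 8. MGME1, a mitochondrial exonuclease, fell by 0.53 ± 0.17 (adjusted p = 0.0418; kept in 2 of 8). Without both mock dipyridamole libraries the calls of RRM2B, TYMP, MGME1 and TWNK with either drug were lost. POLG, the replicative polymerase, had -0.15 ± 0.09 with sorafenib and -0.17 ± 0.09 with dipyridamole (limma adjusted p = 0.329 and 0.181).

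Of 34 genes of mitochondrial RNA processing, stability and polyadenylation, 0 rose and 1 fell with sorafenib, and 0 rose and 8 fell with dipyridamole. The 8 are 23.5% of the list, beside 12.6% of all genes, and the 0 stands beside 17.5%; no test of the list was made. The list's medians were -0.09 and -0.19. TRMT10C, the RNase P subunit that binds the tRNA, was the one that fell with each drug: by 0.65 ± 0.11 with sorafenib (limma adjusted p = 0.0139; lost without mock dipyridamole or SLC29A2 dipyridamole) and by 0.82 ± 0.11 with dipyridamole (adjusted p = 9.99e-04; 8 of 8 refits). ELAC2, which cuts the 3′ end of tRNAs, fell with dipyridamole by 0.64 ± 0.09 (adjusted p = 0.00140) and the exonuclease PNPT1 by 0.69 ± 0.15 (adjusted p = 0.00872), each in 8 of 8 refits. PTCD3, a protein of the small mitochondrial ribosomal subunit, fell by 0.59 ± 0.14 (adjusted p = 0.0149), lost without SLC29A2 control or SLC29A2 dipyridamole. LRPPRC had -0.10 ± 0.11 with sorafenib and -0.27 ± 0.11 with dipyridamole (limma adjusted p = 0.579 and 0.0866). SLIRP had -0.27 ± 0.11 and -0.23 ± 0.11 (limma adjusted p = 0.169 and 0.156), and MTPAP had -0.15 ± 0.15 and -0.23 ± 0.15 (limma adjusted p = 0.588 and 0.295).

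Among 14 nuclear regulators of mitochondrial genes, 2 rose and 0 fell with each drug, with dipyridamole near the share of all genes that rose. CREB1, the cAMP-responsive factor, rose by 0.43 ± 0.11 with sorafenib and 0.45 ± 0.11 with dipyridamole (limma adjusted p = 0.0462 and 0.0145; kept in 0 and 5 of 8 refits). SIRT3, a mitochondrial deacetylase, rose with sorafenib by 0.45 ± 0.11 (adjusted p = 0.0361; 0 of 8), and TFEB, a regulator of lysosomal genes, with dipyridamole by 0.49 ± 0.15 (adjusted p = 0.0359; 1 of 8). Of 42 assembly partners of the encoded subunits, 1 rose and 0 fell with sorafenib, and 3 rose and 2 fell with dipyridamole, smaller shares than those of all genes. COX15, needed for heme A synthesis, rose with sorafenib by 0.43 ± 0.10 (adjusted p = 0.0346; 0 of 8). With dipyridamole UQCC2 rose by 0.38 ± 0.10, NDUFAF2 by 0.34 ± 0.10 and ATPAF2 by 0.32 ± 0.10, assembly factors of complexes III, I and V (limma adjusted p = 0.0210, 0.0317 and 0.0381). The complex IV factors COA7 and COA3 fell by 0.41 ± 0.11 and 0.31 ± 0.10 (adjusted p = 0.0240 and 0.0493). None of these 5 was kept in more than 3 of 8 refits. Without both mock dipyridamole libraries the calls of CREB1 with either drug, SIRT3, COX15, UQCC2, ATPAF2, COA7 and COA3 were lost. Between SLC29A2 and mock cells no gene of these 5 lists passed, since SLC29A2 was the only gene of the 13899 to do so.

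Some nuclear DNA carries copies of mitochondrial genes that can share reads with them. Of 407 annotated copies, 86 had a value above 0 in any library and 3 entered the test, all on chromosome 1. MTND2P28, a copy of MT-ND2, stood at 62.8, 39.0, 86.0 and 24.2 FPKM in mock cells and at 82.3, 45.4, 63.1 and 38.3 FPKM in SLC29A2 cells. MTATP6P1 stood at 379, 309, 562 and 242 FPKM and at 444, 339.7, 381 and 309 FPKM, and MTCO1P12 at 51.6, 60.6, 98.4 and 30.1 FPKM and at 69.5, 62.4, 106 and 46.6 FPKM. The lowest library of each line was that given both drugs, as for the genes they copy. With sorafenib MTND2P28 fell by 1.00 ± 0.18 (limma adjusted p = 0.0157; 8 of 8 refits), and the others had -0.55 ± 0.17 for MTATP6P1 and -0.69 ± 0.27 for MTCO1P12 (adjusted p = 0.0765 and 0.139). Reads of a copy and of its mitochondrial gene cannot be told apart in these tables, so the values of MT-ND2, MT-ATP6 and MT-CO1 are uncertain by what they share with them.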

How the data were processed

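Each of the 8 libraries had 1 table of FPKM deposited by the authors, per the file headers. Tools named in the submitters' processing notes, without their roles, are edgeR, HTSeq 0.6.1 and TopHat2 2.0, with the build GRCh38.p12. Poly(A) RNA was selected with poly-T beads and made into libraries with a NEBNext Ultra RNA kit, per the labels' protocols. Names, classes and positions came from GENCODE release 29, which matched 58039 of 58302 genes. Of the table lines, 8 held no gene identifier and were dropped.

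The 13899 genes that averaged 1 FPKM or more were tested on log2(FPKM + 1) with limma 3.58.1 in R 4.3.3, with a variance trend, two-sided, with Benjamini-Hochberg adjustment over all genes tested and a threshold of 0.05. Interactions were added singly. FPKM times mean transcript length, scaled by the inferred library total, gave a whole number of reads (tolerance 0.01) for 93.6% of values. It did so for all 296 values of the members. Summed over genes, these reads came to 101.0% to 101.1% of the inferred totals, so shares of reads are approximate. Reads recovered in this way served the shares of reads, the intervals and a voom fit (limma) as an alternative, which called 1640 genes for sorafenib and 4523 for dipyridamole. The fit was also run on simulated data with known sorafenib changes and noise drawn separately for each gene. That simulation held no other drug or cell line effect, no interaction and no correlation between genes. It therefore does not cover those features of the real libraries. Alternatives were another pseudocount, filter, scaling, variance model or set of model terms, and leaving out libraries.

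The members and lists were chosen with earlier results of these data known. All 37 members are accounted for: coding genes and rRNAs are named with every value, tRNAs only if tested. Of the nuclear lists, TFAM, POLRMT, TFB2M, POLG, TWNK, LRPPRC, SLIRP and MTPAP are always named, and otherwise up to 4 called genes per list, drug and direction with the largest changes. The log2 pairs and the shares have no test.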

Additional observations from a re-analysis of the deposited data

Results flagged for a closer look

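For 4 members, the effect of one factor had one sign in each pair of libraries at one level of a second factor and the opposite sign in each pair at the other level. The interaction terms themselves did not pass limma's test. The dipyridamole difference of MT-CO1 was 0.82 in mock and 0.19 in SLC29A2 cells without sorafenib, and -0.80 and -0.44 with it, a difference of -1.13 between the levels (limma adjusted p = 0.345). The sorafenib difference of MT-TP was 0.34 and 0.23 without dipyridamole, and -1.97 and -0.25 with it, a difference of -1.40 (limma adjusted p = 0.344), on 9 to 36 reads per library. SLC29A2 cells differed from mock cells in MT-ND3 by 0.75 and 0.58 without dipyridamole, and by -0.86 and -0.13 with it, a difference of -1.16 (limma adjusted p = 0.225). In MT-ATP8 they differed by -0.16 and -0.56 without sorafenib, and by 0.84 and 0.33 with it, a difference of 0.947 (limma adjusted p = 1.00), on 10 to 45 reads per library. A sign shared by 2 pairs is no test.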

How the results depend on the processing

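With sorafenib, 9 members passed (2 higher, 7 lower). The count was 9 with a pseudocount of 0.1, with size factors or with a total without mitochondrial genes, and 10 with a filter at 5 FPKM. It was 12 with voom, which lost MT-ATP8, and 6 without the variance trend. It was 15 with all pairwise interactions in the model, 0 without a filter on low values and 4 without both mock dipyridamole libraries. Leaving out each library in turn gave 1 to 9. With dipyridamole, 2 passed (both higher). The count was 2 with a filter at 5 FPKM, 3 with voom, 1 with a pseudocount of 0.1, and 0 without a filter, with size factors, with a total without mitochondrial genes or without the variance trend. It was 11 with all pairwise interactions and 7 without both mock dipyridamole libraries, and leaving out each library in turn gave 0 to 11. For cell line and the 3 interactions it was 0 in every alternative run. Among the single genes' alternatives 0 reversed a called direction. Of all genes tested, 1127 passed with sorafenib in the main fit, 948 with size factors, 1021 with a total without mitochondrial genes and 1640 with voom. With dipyridamole these counts were 4173, 4284, 4116 and 4523. The model with all pairwise interactions leaves few residual degrees of freedom, and no share of all genes is given for it. Its counts of 15 and 11 are therefore not results about the members. No share of all genes is given either for the other pseudocount, the other filters, the fit without the variance trend and most fits without 1 library. A change in their member counts cannot be told apart from a change in calls over all genes. Leaving out a library also removes a residual degree of freedom, and the unfiltered fit tests more genes. Other causes were not tested. The log2 ratio of the FPKM share lay between -0.97 and -0.55 for sorafenib, -0.55 and -0.13 for dipyridamole and -0.05 and 0.25 for cell line without a library. No fit with a block by replicate number could be made, since the labels give no such numbers. Depth limits MT-ATP8 and MT-TP, at 9 to 45 reads per library.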
